A study of Macaca mulatta with 13 samples.

Results

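The genes described here encode the nuclear subunits of the oxidative phosphorylation machinery, complexes I to V of the inner mitochondrial membrane. Members were probe sets that the platform annotation pairs with exactly 1 gene symbol of the NDUFA, NDUFB, NDUFC, NDUFS, NDUFV, SDH, UQCR, COX4 to COX8 or ATP5 families, or with CYC1. The rule found 108 probe sets of 65 genes, out of 14132 genes with a symbol on the array, and it used names only, no measured value. Of the 65 genes, 57 were subunits: 24 of complex I, 3 of complex II, 7 of complex III, 10 of complex IV and 13 of complex V. The other 8 carried matching names without being counted as subunits: 6 assembly factors of complex I (NDUFAF1, NDUFAF2, NDUFAF3, NDUFAF5, NDUFAF6 and NDUFAF7), the complex V inhibitor ATP5IF1, and ATP5G1, a name that the current RefSeq gene table holds only as a synonym of ATP5MC1, while the platform annotation lists it apart, under Entrez IDs other than that of ATP5MC1. Each gene was represented by its brightest probe set over the 13 arrays. A probe set was tested where its mean log2 value lay above 6.04, the median of those means, and 64 of the 65 genes passed. The gene left out was COX4I2, the lung isoform of a cytochrome c oxidase subunit, with a mean of 5.26.

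The samples were peripheral blood mononuclear cells (PBMC, the lymphocytes and monocytes of blood) of rhesus macaques 4 months old, each on 1 Affymetrix Rhesus array. The rearing conditions compared were 3, with 4 peer reared samples, 4 surrogate-peer reared samples and 5 maternally reared samples. The labels name no treatment besides rearing, and all samples share the age and the cell preparation. The question addressed was whether the respiratory chain genes differed with rearing, tested as an equal-weight average of the groups reared without the mother ("non-maternal", 8 arrays) against the maternal group, and for each pair of groups. The 3 comparisons that involve the maternal group share its 5 arrays.

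Oxidative phosphorylation couples the oxidation of NADH and succinate to ATP synthesis. Complexes I and II pass electrons to ubiquinone, complex III passes them on to cytochrome c and complex IV reduces oxygen, while complexes I, III and IV pump the protons whose return through complex V drives ATP synthesis. A few further subunits are encoded in mitochondrial DNA and are not among the members. In immune cells the pathway is known to be engaged to different degrees by resting lymphocytes, activated lymphocytes and monocytes.

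None of the 64 tested members differed between rearing groups at an adjusted p under 0.05 (limma, Benjamini-Hochberg over all 26352 tested probe sets), in any of the 4 comparisons. Between non-maternal and maternal arrays, 8.0% of all tested probe sets passed this threshold, 6.64% higher and 1.35% lower in non-maternal arrays, and 7.98% of the 9657 named genes passed by their brightest probe set. The smallest adjusted p among the members was 0.0612, for UQCRC2. At an unadjusted p under 0.05, 13 members had a positive and 2 a negative log2 difference, where 29.0% of all tested probe sets had such a p. The median log2 difference over the members was 0.08, with 43 of 64 positive, against a median of 0.007 and 51% positive over all tested probe sets. With the filter raised to the 75th percentile of brightness, the members' median was 0.08 and that of all tested probe sets 0.09. In RNA from mixed cells, fewer cells of a type and less RNA per cell cannot be told apart.

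The intervals give the size of difference these arrays leave room for. The 95% interval of the difference between non-maternal and maternal arrays stayed within 1.5-fold either way for 57 of the 64 members. It reached past 1.5-fold for NDUFV2, UQCRB, UQCRC2, UQCRFS1, COX5A, COX7A1 and COX7A2. Across members the lowest bound was -0.73 for COX7A1 and the highest was 0.82 for UQCRC2, on the log2 scale. Among all tested named genes, 71.9% had intervals within 1.5-fold. These counts use only the brightest probe set of each gene. For UQCRC1 and NDUFS6, which stayed within by that probe set, other probe sets described below had larger differences.

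**Figure D1:**
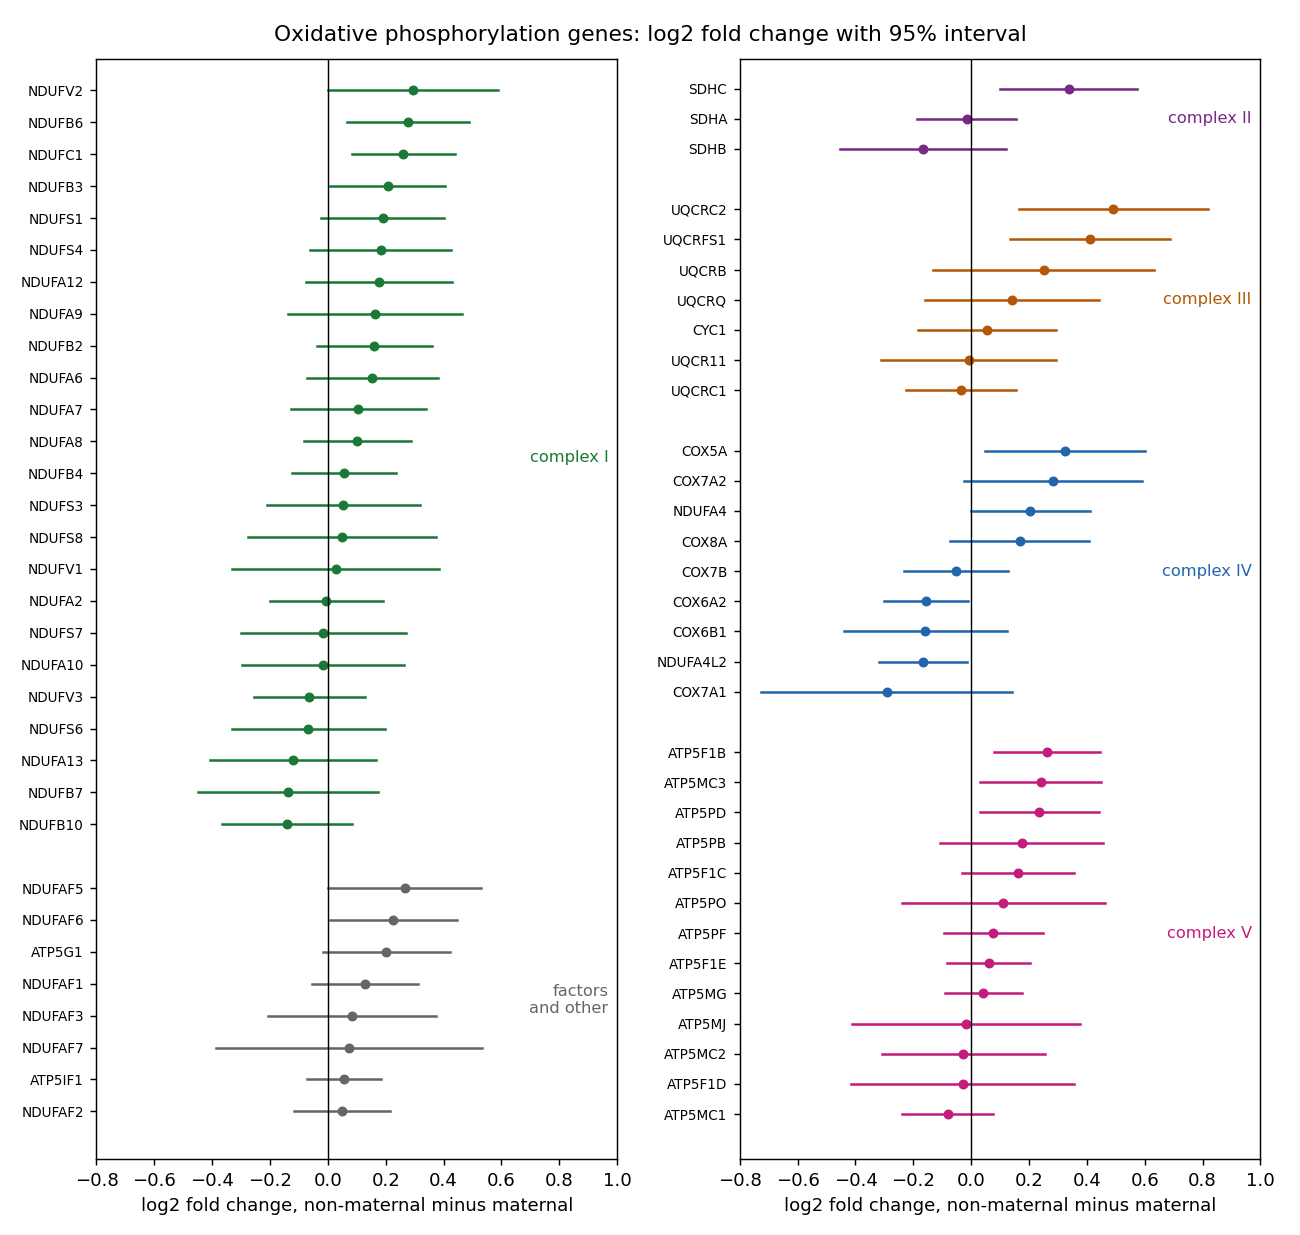
Log2 difference, non-maternal minus maternal, with its 95% interval for each of the 64 tested members (points, 1 row per gene, sorted within each complex; 8 against 5 arrays). The estimates run between -0.29 for COX7A1 and 0.49 for UQCRC2, and most lie at or just right of 0.

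Complex I, the NADH dehydrogenase, had a median log2 difference of 0.08 between non-maternal and maternal arrays over its 24 members, 16 of them positive, with a range of -0.14 to 0.29. The 3 core subunits of the module that takes electrons from NADH were all positive: NDUFV2, an iron-sulfur protein, differed by 0.29 ± 0.13 (SE), NDUFS1 by 0.19 ± 0.10 and the NADH-binding NDUFV1 by 0.03 ± 0.17. Their adjusted p-values were 0.170, 0.214 and 0.923. The 3 core subunits that reduce ubiquinone lay nearer to 0, with 0.05 for NDUFS3, 0.05 for NDUFS8 and -0.02 for NDUFS7. Accessory subunits of the same peripheral arm had a median of 0.13 over 8 genes, and those of the membrane arm 0.08 over 10 genes. NDUFV1 was the member of complex I with the widest spread in the maternal group, with 9.0, 8.55, 9.59, 9.24 and 8.60 on the log2 scale, against 8.80 to 9.22 on the peer arrays and 8.89 to 9.31 on the surrogate-peer arrays.

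The smallest p of complex I belonged to NDUFC1, an accessory subunit of the membrane arm. NDUFC1 measured 11.62, 11.48, 11.51 and 11.62 on the peer arrays, 11.59, 11.50, 11.47 and 11.44 on the surrogate-peer arrays, and 11.55, 11.36, 11.15, 11.26 and 11.04 on the maternal arrays. Of the 5 maternal arrays, 4 lay below all 8 others and 1 lay among them. Its log2 difference was 0.26 ± 0.08 (SE, adjusted p = 0.0661). NDUFB6, also in the membrane arm, measured 9.52, 9.17, 9.28 and 9.36 on the peer arrays, 9.27, 9.33, 9.33 and 9.20 on the surrogate-peer arrays, and 9.22, 9.33, 8.93, 8.84 and 8.84 on the maternal arrays. The last 3 maternal arrays lay below every other array, and maternal arrays 1 and 2 did not. The difference was 0.28 ± 0.10 (adjusted p = 0.0916), and that of NDUFB3 was 0.21 ± 0.09 (adjusted p = 0.157). NDUFA2, an accessory subunit of the peripheral arm, was nearest to 0, with 11.00 to 11.45 on the 8 non-maternal arrays and 11.11 to 11.43 on the 5 maternal ones. The lowest estimates of the complex were -0.14 ± 0.10 for NDUFB10, -0.14 ± 0.14 for NDUFB7 and -0.12 ± 0.13 for NDUFA13, all in the membrane arm.

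Complex II, succinate dehydrogenase, joins the tricarboxylic acid cycle to the respiratory chain, and its 3 members did not run together. SDHC, which anchors the enzyme in the membrane, measured 9.22, 9.08, 9.12 and 9.37 on the peer arrays, 9.12, 8.97, 9.0 and 8.91 on the surrogate-peer arrays, and 9.02, 8.68, 8.92, 8.87 and 8.32 on the maternal arrays. All 4 peer arrays lay above all 5 maternal arrays, while the surrogate-peer arrays overlapped the maternal ones. The log2 difference of SDHC was 0.34 ± 0.11 between non-maternal and maternal arrays (adjusted p = 0.0714) and 0.44 ± 0.13 between peer and maternal arrays (adjusted p = 0.0809). SDHB, the iron-sulfur subunit, measured 9.76, 9.43, 9.54 and 9.55 on the peer arrays, 9.57, 9.86, 9.60 and 9.59 on the surrogate-peer arrays, and 9.49, 10.23, 9.42, 9.70 and 10.05 on the maternal arrays. Its highest values were those of maternal arrays 2 and 5, and its difference was -0.17 ± 0.13 (adjusted p = 0.410). SDHA, the flavoprotein that oxidises succinate, differed by -0.02 ± 0.08 (adjusted p = 0.903).

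Complex III, the cytochrome bc1 complex, had a median log2 difference of 0.14 over 7 members, 5 of them positive, and the pair of members with the smallest p-values of the whole list. UQCRC2, a core protein of the complex, measured 9.46, 9.42, 9.35 and 9.43 on the peer arrays, 9.17, 9.16, 9.55 and 9.26 on the surrogate-peer arrays, and 9.15, 9.40, 8.78, 8.38 and 8.58 on the maternal arrays. Maternal arrays 3, 4 and 5 lay well below all others, and maternal array 2 lay at the level of the peer arrays. The log2 difference was 0.49 ± 0.15, a 1.41-fold higher estimate in non-maternal arrays, with an adjusted p of 0.0612. UQCRFS1, the Rieske iron-sulfur protein, measured 10.68, 10.42, 10.51 and 10.74 on the peer arrays, 10.67, 10.76, 10.51 and 10.63 on the surrogate-peer arrays, and 10.47, 10.37, 10.36, 10.21 and 9.62 on the maternal arrays. The surrogate-peer arrays all lay above the maternal ones, and 1 peer array lay below the highest maternal array. Its difference was 0.41 ± 0.13 (adjusted p = 0.0639).

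The other members of complex III did not share these values. Cytochrome c1 (CYC1) differed by 0.06 ± 0.11 and the small subunit UQCR11 by -0.01 ± 0.14. UQCRQ, an accessory subunit, differed by 0.14 ± 0.14. UQCRB differed by 0.25 ± 0.18, from a dim probe set whose values ran from 6.37 to 7.40 on the non-maternal arrays and from 6.27 to 6.87 on the maternal ones. UQCRC1, the partner core protein of UQCRC2, differed by -0.03 ± 0.09 (adjusted p = 0.814), with 10.84 to 11.21 on the non-maternal arrays and 10.85 to 11.31 on the maternal arrays.

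**Figure D2:**
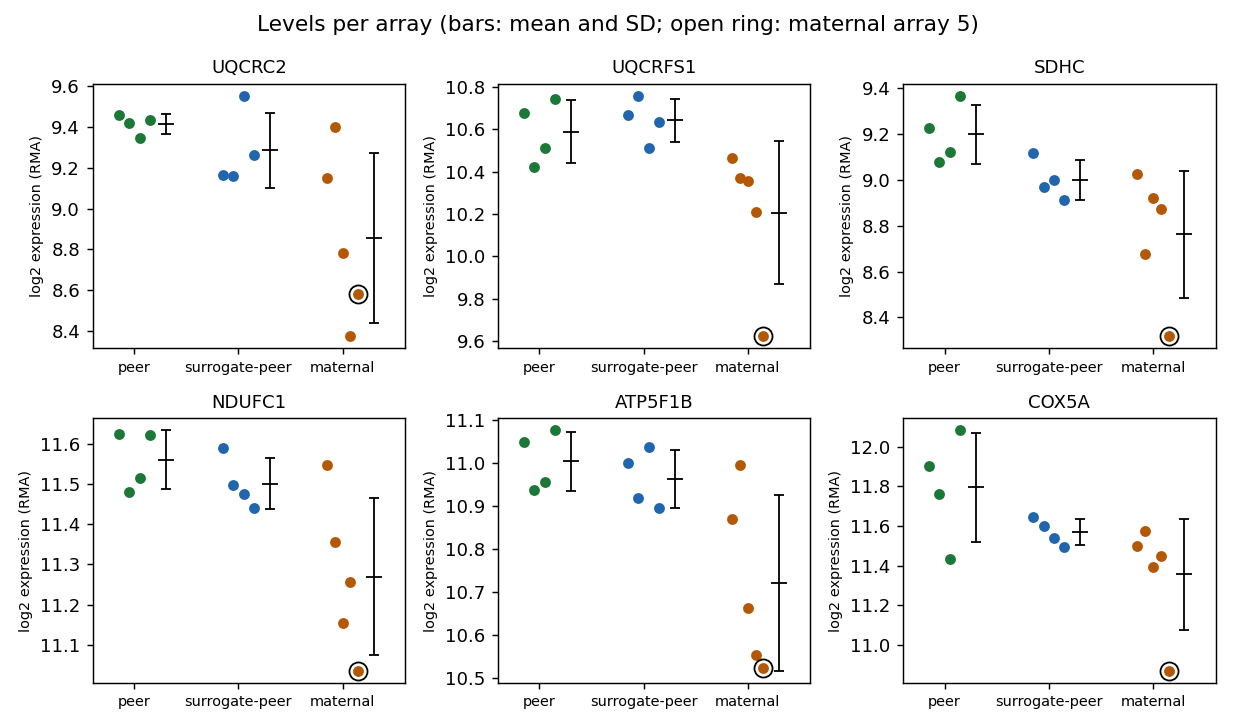
Log2 expression on each array (points) for 6 members, with peer, surrogate-peer and maternal arrays from left to right, and bars for each group's mean and SD (4, 4 and 5 arrays). In each of the 6 panels the maternal mean is the lowest of the 3 and the maternal arrays overlap at least 1 array of another group; the ringed maternal array 5 is the lowest point in 5 panels, and maternal array 4 in that of UQCRC2. The vertical axes differ between panels and do not start at 0.

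Complex IV, cytochrome c oxidase, had a median log2 difference of -0.05 over 9 tested members. Its 6 common isoforms had a median log2 difference of 0.19 with 4 positive, and the 3 tested tissue isoforms a median of -0.17 with 0 positive. The difference between these kinds was not tested. COX5A, a subunit on the matrix side, measured 11.90, 11.76, 11.44 and 12.08 on the peer arrays, 11.64, 11.60, 11.54 and 11.49 on the surrogate-peer arrays, and 11.50, 11.57, 11.39, 11.45 and 10.87 on the maternal arrays. The 3 highest arrays were all peer arrays, and the lowest was maternal array 5. The difference was 0.33 ± 0.13 (adjusted p = 0.118), and 0.20 without maternal array 5. COX7A2, the counterpart of COX7A1 outside muscle, differed by 0.28 ± 0.14, and NDUFA4, a protein first assigned to complex I and now placed in complex IV, by 0.20 ± 0.09. COX8A differed by 0.17 ± 0.11. COX7B and COX6B1 differed by -0.05 ± 0.08 and -0.16 ± 0.13.

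Among the tissue isoforms, COX6A2, a heart and muscle isoform, differed by -0.16 ± 0.07 (adjusted p = 0.144) and NDUFA4L2, a paralog of NDUFA4 known to be induced by hypoxia, by -0.17 ± 0.07 (adjusted p = 0.140). Both came from dim probe sets, with 6.73 to 6.89 on the non-maternal and 6.83 to 7.18 on the maternal arrays for COX6A2, and 6.10 to 6.33 against 6.20 to 6.54 for NDUFA4L2. COX7A1, another heart and muscle isoform, measured 8.98, 8.71, 8.89 and 9.49 on the peer arrays, 8.70, 9.29, 8.77 and 8.27 on the surrogate-peer arrays, and 8.89, 9.04, 9.74, 9.40 and 8.80 on the maternal arrays. The 3 groups overlapped, and the estimate of -0.29 ± 0.20 (adjusted p = 0.339) was the lowest of all members. With the tissue isoforms of dim signal left out by the stricter filter on brightness, the median of complex IV was 0.17 over 7 members, against -0.05 over 9.

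Complex V, the ATP synthase, had a median log2 difference of 0.08 over 13 members, 9 of them positive. ATP5F1B, the catalytic beta subunit, measured 11.05, 10.94, 10.96 and 11.08 on the peer arrays, 11.00, 10.92, 11.04 and 10.90 on the surrogate-peer arrays, and 10.87, 10.99, 10.66, 10.55 and 10.52 on the maternal arrays. Maternal arrays 3, 4 and 5 were the 3 lowest of all, and maternal array 2 lay inside the range of the non-maternal arrays. Its difference was 0.26 ± 0.08 (adjusted p = 0.0702). The other members of the catalytic head and central stalk differed by 0.16 ± 0.09 for ATP5F1C, 0.06 ± 0.07 for ATP5F1E and -0.03 ± 0.18 for ATP5F1D. All 4 members of the peripheral stalk, which holds the head still against the rotor, were positive, between 0.08 for ATP5PF and 0.24 for ATP5PD (adjusted p = 0.127 for ATP5PD). The membrane part was mixed: the c-ring genes ATP5MC3, ATP5MC2 and ATP5MC1 differed by 0.24 ± 0.10, -0.03 ± 0.13 and -0.08 ± 0.07, and the small proteins ATP5MG and ATP5MJ by 0.04 ± 0.06 and -0.02 ± 0.18. The inhibitor ATP5IF1, which blocks ATP hydrolysis by the complex, ran from 8.62 to 8.85 on the non-maternal and from 8.63 to 8.73 on the maternal arrays, a difference of 0.06 ± 0.06.

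The 6 complex I assembly factors among the members all had positive differences, between 0.05 for NDUFAF2 and 0.27 for NDUFAF5 (adjusted p = 0.169 for NDUFAF5), with 0.23 ± 0.10 for NDUFAF6. The probe set named ATP5G1 differed by 0.20 ± 0.10, and the brightest one named ATP5MC1 by -0.08 ± 0.07. Their Entrez IDs differ, and whether they measure 1 gene or separate copies was not tested.

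Between peer and maternal arrays, 0 members passed, where 0.353% of all tested probe sets did. The members' median log2 difference was 0.09, with 49 of 64 positive against 50.6% of all tested probe sets, and 10 positive and 2 negative members had an unadjusted p under 0.05, against 24.9% of probe sets. SDHC was the 1 member higher on every peer array than on every maternal array, and 0 were lower on every one. Over all tested probe sets such separation was seen for 5.63% higher and 3.85% lower. By complex the medians were 0.11 for complex I, 0.05 for complex II, 0.13 for complex III, -0.05 for complex IV and 0.11 for complex V, in which 12 of 13 members were positive.

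Between surrogate-peer and maternal arrays, 0 members and 0.00% of all tested probe sets passed. The median over members was 0.07, with 43 positive (52.2% of all tested probe sets were), and 5 positive and 1 negative had an unadjusted p under 0.05, against 20.3%. UQCRFS1 was the 1 member higher on every surrogate-peer array than on every maternal array (2.96% of all tested probe sets), and 0 were lower (2.48%). The medians of complexes I to V in that order were 0.06, -0.08, 0.16, -0.06 and 0.06.

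The log2 differences between surrogate-peer and peer arrays use no maternal array. Their SEs and p-values do, since they come from the fit of all arrays, which takes in the spread within the maternal group. The median SD over members was largest in that group, so these p-values are not independent of the maternal arrays. Again 0 members and 0.00% of all tested probe sets passed (limma, smallest adjusted p = 1.0), and 1 member had an unadjusted p under 0.05, against 1.83%. The median over members was -0.01, with 27 of 64 positive, against 50.2% of all tested probe sets. The 1 member was ATP5MC1, which measured 9.97, 9.77, 9.93 and 9.79 on the surrogate-peer arrays and 10.06, 10.17, 10.04 and 10.11 on the peer arrays. All 4 surrogate-peer arrays lay below all 4 peer arrays, a separation seen for 0.873% of all tested probe sets in this direction and for 0.869% in the other, where 0 members had it. Its log2 difference was -0.23 ± 0.09. For non-maternal against maternal arrays, 0 members were fully separated, against 1.89% of all tested probe sets higher and 0.971% lower.

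The lowest levels of the maternal group lay mostly on its array 5. That array was the lowest of the 13 for 36 of the 64 members, or 56.2%, against 28.2% of all tested named genes. It was the highest for 0 members, against 11.7% of those genes. It lay below the maternal mean, of which it is a part, for 61 members, and the share over all genes is not given here. Averaged over the members of a complex, its deviation from the mean of the 13 arrays was -0.35 for complex I, -0.15 for II, -0.49 for III, -0.28 for IV and -0.37 for V. On the other 4 maternal arrays these averages lay between -0.16 and 0.18, and on the 8 non-maternal arrays between -0.12 and 0.25. Without maternal array 5 the members' median difference was 0.02, with 35 of 64 positive. By complex the members' median without that array was 0.02 for I, -0.07 for II, -0.01 for III, -0.09 for IV and 0.02 for V. UQCRC2 differed by 0.42 without that array, UQCRFS1 by 0.26, SDHC by 0.23, NDUFC1 by 0.20 and ATP5F1B by 0.21, and 0 members were called.

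**Figure D3:**
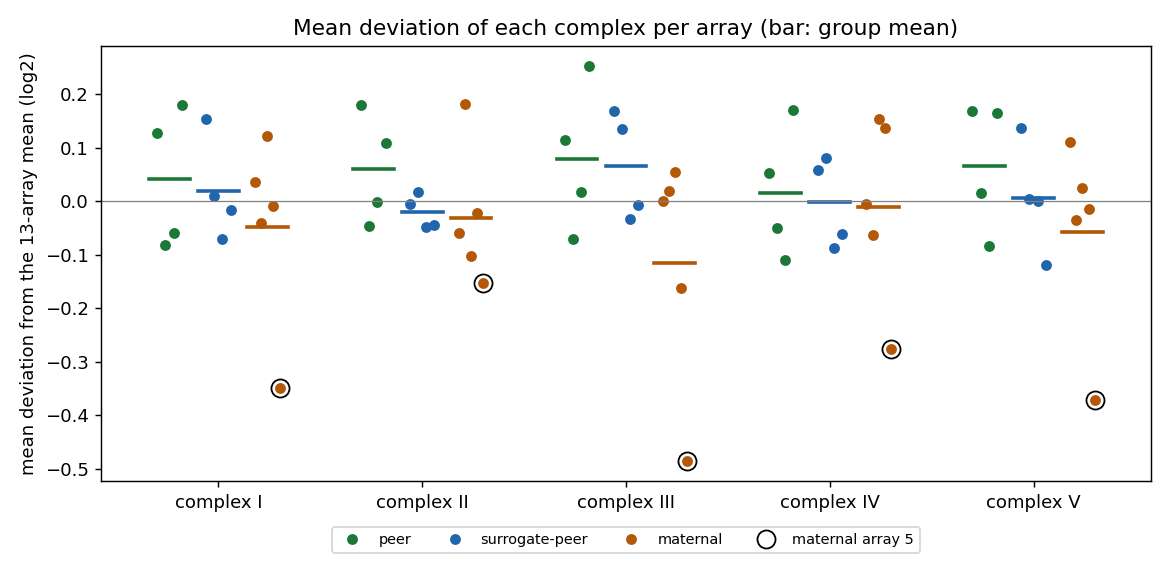
Mean deviation of the tested members of each complex from their 13-array means, in log2 units, for each array (points), with peer, surrogate-peer and maternal arrays from left to right within each complex and bars at group means. The ringed maternal array 5 is the lowest point in all 5 complexes, and the other 12 arrays overlap across the groups.

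Leaving out maternal array 1 raised the number of calls, among the members and over all tested probe sets. Without it, 7 members passed in the non-maternal comparison (limma), NDUFB6, NDUFC1, SDHC, UQCRC2, UQCRFS1 and ATP5F1B higher and NDUFA4L2 lower, while 18.3% of all tested probe sets passed. Without maternal array 2, UQCRC2 and ATP5F1B passed, beside 4.62% of all tested probe sets. Without maternal array 4 or 5, 0 members and 0.114% or 0.228% of all tested probe sets passed.

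The maternal arrays also varied more among themselves. The SD within the maternal group was the largest of the 3 groups for 45 of 64 members, or 70.3%, against 62.3% of all tested named genes. The median SD over members was 0.148 in the peer group, 0.136 in the surrogate-peer group and 0.233 in the maternal group. Without maternal array 5, which was chosen after seeing its values, the maternal group had the largest SD for 26 members, or 40.6%, against 52.4% of genes, and its median SD was 0.165.

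Subunits of the 5 complexes varied together from array to array. The Pearson correlation of deviations from the group means over the 13 arrays had a median of 0.47 over the 1540 pairs of the 56 tested subunits, against 0.04 over all pairs of tested named genes. Within complexes the medians were 0.51 for I, 0.24 for II, 0.40 for III, 0.36 for IV and 0.49 for V, and between complexes it was 0.47, so subunits of 1 complex were not set apart from those of the others by this measure. Without maternal array 5 the median was 0.30, against 0.02. These values are descriptions, since all pairs share the same arrays and their scaling, and the genes compared with the subunits were not matched for brightness. The tested genes whose deviations were most like those of UQCRC2 over the 13 arrays were TPP2 (r = 0.963), LPXN (0.940), EIF2B1 (0.929), FSTL1 (0.929) and TBCE (0.920). They are the top of a ranking of the 9657 tested named genes, and UQCRC2 was chosen by its p in the same data. High values are likely in such a search, and the likeness was not tested.

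Where a member had more than 1 probe set, as 31 did, the choice mattered for a few. UQCRC1 was the 1 member with any passing probe set in the non-maternal comparison, among 90 tested probe sets of members. Of all tested probe sets, 8.0% passed. UQCRC1 had 3: its brightest differed by -0.03, the second by 0.12 ± 0.09, and the third by 0.50 ± 0.11, which passed the threshold (adjusted p = 0.0279). On the probe set that passed, UQCRC1 measured 8.90 to 9.26 on the non-maternal arrays and 9.03, 8.34, 8.69, 8.56 and 8.37 on the maternal ones, so that only maternal array 1 overlapped. The brightest probe set of NDUFS6, an accessory subunit of the NADH module, differed by -0.07 ± 0.12, while its other 2 differed by 0.48 ± 0.14 (adjusted p = 0.0501) and 0.26 ± 0.15. For ATP5F1B, another probe set differed by -0.03 ± 0.14, with its highest value, 11.23, on maternal array 5, where the brightest probe set had its lowest. Which of these probe sets measures its transcript best was not tested.

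The scaling of the arrays bears on differences of this size. Over all deposited probe sets, controls included, the median log2 value was 5.995 to 6.043 on non-maternal arrays and 6.048 to 6.06 on maternal arrays. The SD over the same probe sets was 2.13 to 2.16 and 2.10 to 2.12. Maternal arrays thus had a higher median and a smaller SD, and the part of this in the members' values was not tested. For the tested probe sets alone the order was reversed, with a median of 7.73 to 7.76 on non-maternal arrays and 7.65 to 7.71 on maternal arrays. With each array centred on that median, the members' median difference was 0.02 and that of all tested probe sets -0.05, and the medians of complexes I to V were 0.02, -0.08, 0.08, -0.11 and 0.01. After a further quantile normalization they were 0.04, -0.06, 0.10, -0.08 and 0.05, with -0.03 for all tested probe sets. Complex IV had the lowest median and complex III the highest under these 3 scalings. The order was not fixed: complex I had the highest median without maternal array 5, without maternal array 2 (0.12, against 0.11 for III) and with array weights (0.045, against 0.043 for III), complex II without maternal arrays 2 and 5 (0.07, against -0.05 for III), and complex IV under the stricter filter on brightness (0.17, against 0.10 for III). No member was called under either rescaling.

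**Figure D4:**
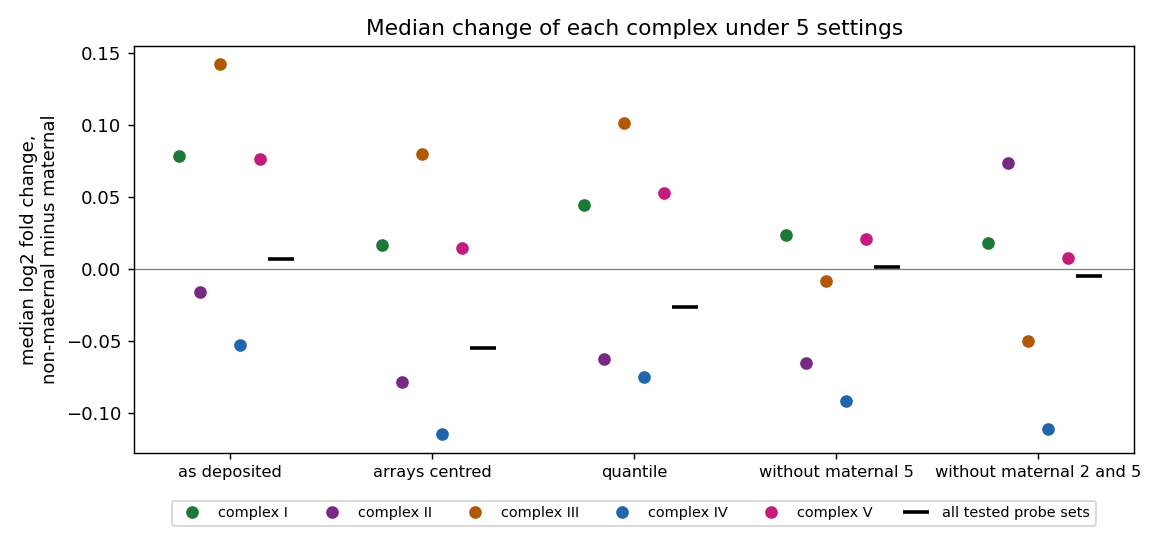
Median log2 difference, non-maternal minus maternal, of each complex (coloured points) and of all tested probe sets (black bars) as deposited, under 2 rescalings and without 1 or 2 maternal arrays. The median of complex III is 0.14 as deposited and -0.01 without maternal array 5, whereas that of complex IV is below 0 in all 5 settings.

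Genes around the chain were read from 4 lists. Of 33 tested assembly factors of the complexes, 4 passed in the non-maternal comparison and all 4 were higher, where 6.30% of all tested named genes passed as higher: PET100, needed for complex IV, by 0.58 ± 0.12 (adjusted p = 0.0240), LYRM7, which guides the Rieske protein into complex III, by 0.52 ± 0.13 (adjusted p = 0.0368), TMEM126B, a complex I assembly factor, by 0.45 ± 0.11 (adjusted p = 0.0365), and TMEM70, an assembly factor of complex V, by 0.28 ± 0.08 (adjusted p = 0.0494). PET100 measured 10.68, 10.56, 10.55 and 10.44 on the peer arrays, 10.44, 10.38, 10.67 and 10.48 on the surrogate-peer arrays, and 10.51, 9.80, 9.90, 9.77 and 9.75 on the maternal arrays. Maternal array 1 lay among the non-maternal arrays and the other 4 far below them. The median of the list was 0.10, with 26 of 33 positive.

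Of 9 tested genes of the tricarboxylic acid cycle and pyruvate entry, 2 passed, both higher, against the same 6.30% of genes. SUCLA2, the beta subunit of the ADP-forming succinyl-CoA ligase, rose by 0.80 ± 0.18 (1.74-fold, adjusted p = 0.0264) and PDHX, a structural protein of the pyruvate dehydrogenase complex, by 0.44 ± 0.12 (adjusted p = 0.0460). SUCLA2 measured 8.22, 8.11, 8.05 and 8.20 on the peer arrays, 7.94, 8.30, 8.39 and 7.82 on the surrogate-peer arrays, and 7.85, 7.29, 7.51, 7.41 and 6.58 on the maternal arrays. Only maternal array 1 overlapped the others, with 1 surrogate-peer array below it. Of 9 tested genes of mitochondrial transcription and biogenesis, 2 passed, both higher, again beside 6.30%: the elongation factor TEFM by 0.53 ± 0.11 (adjusted p = 0.0231) and the termination factor MTERF1 by 0.44 ± 0.11 (adjusted p = 0.0358). Their list had a median of 0.39 with 8 of 9 positive, and TFAM, which packages mitochondrial DNA and starts its transcription, differed by 0.39 ± 0.16 (adjusted p = 0.125).

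Of 13 tested genes of electron carriers and ubiquinone synthesis, 0 passed, where 7.98% of all tested named genes did. COQ3 and COQ6, enzymes of ubiquinone synthesis, had the smallest p-values of that list, with differences of 0.20 ± 0.07 (adjusted p = 0.0906) and 0.26 ± 0.10 (adjusted p = 0.117). In the other 3 comparisons 0 genes of the 4 lists passed. Of all tested named genes, 0.197% passed between peer and maternal arrays and 0.00% in each of the other comparisons. All 8 calls of the non-maternal comparison were absent without peer array 1, without maternal array 4 and without maternal array 5. Few of all tested probe sets passed without maternal array 4 or 5, as given above. The share without peer array 1 is not given here, so the loss of these calls is not read as a result about these genes.

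Some cell markers passed the threshold in the non-maternal comparison, and the ranges of an RNA measure, which was not tested, overlapped between the groups. The T cell, B cell, NK cell and monocyte markers measured on the array were all above the limit for testing. That does not identify the preparation, as 4 neutrophil granule and 3 erythroid markers were above it too. The neutrophil granule markers averaged 8.43 to 10.14 on non-maternal and 8.31 to 9.57 on maternal arrays. The erythroid markers averaged 8.51 to 9.43 and 8.75 to 9.125, and 0 of either list passed the threshold. No marker was at 0, which this scale does not hold. The 7 tested T cell markers averaged 9.03 to 9.51 on non-maternal and 8.68 to 9.32 on maternal arrays, with the lowest 2 averages on maternal arrays 2 and 5, and 0 of 7 passed. The 11 monocyte markers averaged 10.22 to 11.07 on non-maternal and 10.34 to 11.46 on maternal arrays, highest on maternal arrays 2 and 5, and 1 of 11 passed, lower. Of all tested named genes, 1.69% passed as lower and 6.30% as higher in non-maternal arrays. The 8 markers of NK and cytotoxic cells averaged 8.52 to 9.76 on non-maternal and 9.23 to 10.17 on maternal arrays, and 4 of 8 passed, all lower, beside the same 1.69%. The 7 B cell markers averaged 8.27 to 9.86 on non-maternal and 9.53 to 10.38 on maternal arrays, and 1 of 7 passed, lower, again beside 1.69%. The 6 tested markers of dendritic cells and basophils averaged 7.60 to 8.33 on non-maternal and 6.85 to 8.01 on maternal arrays. FCER1A and CPA3, 2 of the 6, passed, both higher, beside 6.30%. The list was mixed, with 4 positive and 2 negative differences, the lowest -0.53, and a median of 0.28. The 7 platelet markers averaged 8.84 to 10.13 on non-maternal and 9.35 to 10.63 on maternal arrays, with 0 of 7 passing and 0 of 7 positive differences. The log2 ratio of 3' to 5' control probe sets for actin and GAPDH, which grows as RNA breaks down, was 1.33 to 1.74 on non-maternal and 1.55 to 2.23 on maternal arrays. On maternal arrays 2 and 5 this ratio was 1.55 and 1.61, inside the non-maternal range. The part of the cell markers and of this ratio in the values of the respiratory chain genes was not tested. Without maternal arrays 2 and 5 together, the members' median difference was 0.02, with 37 of 64 positive, and 0 members passed. The shares of all tested probe sets in that fit are not given here.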

How the data were processed

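Per the submitters' processing notes, the authors summarised the arrays with RMA, and the values were deposited as log2 expression per probe set (52865, of which 158 controls were left out). Whether the 13 arrays were normalized together, and the version used, is not given in the sources used here. Gene symbols came from the platform annotation: 24956 probe sets had 1 symbol, 361 several and 27390 none. A further 12 probe sets, with a matching symbol among several, were not used. Probe sets with a mean above 6.04 (26352) were fitted with limma 3.58.1 in R 4.3.3 (lmFit, eBayes, all 13 arrays in 1 fit, two-sided, Benjamini-Hochberg over all of them, threshold 0.05). The script was tested on simulated data. Replicates were numbered in accession order, and since no label says which samples come from separate animals or days, p-values measure the spread between these samples. The number of arrays, with the spread within groups, limits precision.

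The members and lists were chosen with earlier results of these data known. Named by rule were the 3 members with the smallest p and the 1 nearest 0 in each complex, core subunits, tissue isoforms, the inhibitor, genes whose probe sets disagree, and in each list the genes that passed or else the 2 with the smallest p; other members were named after their values were seen. Other filters, scalings, array weights, probe-set summaries, a title-number covariate and each array left out were tried as alternatives. Correlations and SDs without maternal array 5 were added after the data were seen. Sequences are not shown, as the tables used hold none.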

Additional observations from a re-analysis of the deposited data

Results flagged for a closer look

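Values of 2 members stood apart from the rest of their group by Dixon's criterion, among 90 groups of values checked; chance marks about 1 in 20. SDHB, the iron-sulfur subunit of succinate dehydrogenase, was at 9.86 on surrogate-peer array 2, against 9.57 to 9.60 on the other 3 arrays of that group. COX5A, a subunit of cytochrome c oxidase, was at 10.87 on maternal array 5, against 11.39 to 11.57 on the other 4 maternal arrays. Maternal array 5 was also the lowest of the 13 arrays for most members, as described above.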

How the results depend on the processing

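The count of members called stayed at 0 in all 4 comparisons with no filter, a stricter filter, arrays centred on the median, quantile normalization, a trended robust prior, averaged probe sets and subunits alone, and with only the arrays compared in the 3 comparisons of single groups. Array weights gave 1 call in peer against maternal arrays (UQCRC2, adjusted p = 0.0481), and the share of all tested probe sets in that fit is not given here. Counting any probe set of a gene gave 1 for non-maternal against maternal (UQCRC1), where 8.0% of all tested probe sets passed. With the title number as a covariate, whose meaning is not given and which runs with the groups, 11 passed there, all higher, beside 11.9% of all tested probe sets, and 2 in peer against maternal arrays, beside 6.90%. That fit gave medians of 0.22, 0.03, 0.42, 0.04 and 0.30 for complexes I to V in non-maternal against maternal arrays, and of 0.16 for complex I in surrogate-peer against peer arrays, with 23 of 24 positive. Leaving out 1 array at a time gave 0 to 7 calls for non-maternal, 0 to 3 for peer and 0 to 1 for surrogate-peer against maternal arrays, with the upper counts without maternal array 1. The share of all tested probe sets is given above only for some of the non-maternal fits. Counts without such a share are not read as a result about the members. In the same fits the members' median lay between 0.02 and 0.13, 0.04 and 0.15, and 0.01 and 0.11 in these 3 comparisons, and between -0.06 and 0.02 for surrogate-peer against peer arrays.

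For non-maternal against maternal arrays, single members near 0 changed sign. Centred arrays gave NDUFV1 -0.035, CYC1 -0.0062 and ATP5IF1 -0.0059; quantile normalization gave -0.068, -0.0048 and -0.036 for the same genes; array weights gave NDUFV1 -0.032 and CYC1 -0.018. Averaged probe sets gave NDUFA2 0.052 and UQCRC1 0.19. The covariate gave NDUFA2 0.045, SDHA 0.028, UQCR11 0.17, COX7B 0.039 and ATP5MJ 0.35. Without maternal arrays 2 and 5, SDHB was 0.074, SDHA 0.0097, NDUFV1 -0.25 and CYC1 -0.10. Leaving out single arrays moved NDUFA2 between -0.041 and 0.037, SDHA between -0.065 and 0.052, UQCR11 between -0.14 and 0.060, ATP5MJ between -0.13 and 0.063, NDUFV1 between -0.084 and 0.18, UQCRC1 between -0.092 and 0.024 and CYC1 between -0.057 and 0.12. The cause was not tested in any of these cases. No paired analysis was possible because the labels give no replicate numbers that tie arrays of different groups.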
